A study of Mus musculus with 15 samples.

Results

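Chromatin accessibility was examined at genes for splicing factors and other RNA-binding proteins in mouse pancreatic islets. Members were the peaks whose annotated gene symbol began with 1 of 9 names: Snrp, Sf3a or Sf3b, U2af, Prpf, Srsf, Hnrnp, Ddx, Rbm or Mbnl (with a digit after Prpf, Srsf, Ddx, Rbm and Mbnl). The rule reads gene symbols alone, but only listed peaks can be members, and it was set with earlier results of these data known. It gave 329 of the 41774 rows of the 4 deposited comparison tables, at 108 distinct loci near 88 of 10268 genes. Of the 88 genes, 86 code for protein, and Rbm3os and Rbm46os are non-coding RNAs named after a neighbouring gene.

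The spliceosome removes introns from pre-mRNA and is built from small nuclear ribonucleoproteins, in which Sm proteins, encoded by some of the Snrp genes, form a ring on the small nuclear RNA and others bind a single kind of particle. The U2AF proteins and the SF3A and SF3B complexes mark the 3′ splice site and the branch point, and the PRPF proteins work in assembly and catalysis. SR proteins (Srsf genes) and hnRNPs bind exons and introns and shift splice site choice, often in opposite directions, while DEAD-box helicases (Ddx genes), RBM proteins and muscleblind proteins (Mbnl genes) remodel RNA or regulate its splicing and turnover. In beta cells, RNA-binding proteins shape the transcripts of genes for exocytosis and insulin secretion. ATAC-seq maps open chromatin with a transposase that inserts adapters into accessible DNA, so it reads the chromatin around these genes and neither their RNA nor splicing.

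The islets came from male mice aged 3 months, all homozygous for floxed Arid1a (Arid1aFl/Fl), which encodes a subunit of SWI/SNF, a complex that remodels nucleosomes. Controls were Arid1aFl/Fl; MIP-rtTA and the other genotype, labelled Arid1a βKO, was Arid1aFl/Fl; MIP-rtTA; TRE-Cre. Both genotypes received doxycycline at 1 g/L for 2 weeks, so the controls carry the floxed alleles, the activator and the drug but no Cre. Partial pancreatectomy (PPx), which removes part of the pancreas and leaves the rest to compensate, followed 1 week after doxycycline ended, and islet collection was at baseline or 6 days after the operation. There were 4 control and 3 KO-labelled libraries before PPx and 4 of each after it, every library from 40000 islet cells read as single ends of 75 bp. The mouse insulin promoter of MIP-rtTA limits Cre to beta cells, while whole islets also hold alpha, delta, endothelial and other cells, so a change in beta cells and a change in the share of beta cells cannot be told apart.

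The authors' deposited tables hold group means, folds and test values, and no value per library. All levels below are these group means, in log2 normalised reads per peak. Every fold is a difference of 2 such means on the log2 scale, as KO-labelled minus control or after minus before PPx. The standard error (SE) of a fold was computed from the fold and its p-value, and its median over member peaks was 0.42 for genotype before PPx and 0.39 after it, 0.37 for the effect of PPx in controls and 0.48 for that in KO-labelled islets. A peak is called gained or lost where the authors' false discovery rate (FDR) is 0.05 or below. Levels of 1 group and the edges of a peak differ slightly between tables. The depth of each library is unknown from these tables. In the authors' deposited tables the only Arid1a peak, in exon 9 (chr4:133692981-133693581, mm10), was higher in KO-labelled than in control islets, at 5.49 against 1.21 before PPx (FDR 0.00187) and 4.04 against 0.40 after it (FDR 0.00201). Which exon is floxed is not in the labels, and the group is called KO-labelled throughout. Of 13 beta cell marker genes, 8 had a listed peak in the 2 tables that hold the KO-labelled libraries after PPx, and 6 in the other 2. Beta markers without any listed peak included Ins2, Pdx1, Slc2a2, Iapp and Neurod1, so being unlisted does not show that a gene is closed or silent.

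The promoters below belong to members that were gained in KO-labelled against control islets after PPx, 1 per family. The calls rest on reads over whole peaks, and these promoters are shown because the gained peaks cover all or part of them. Each runs 5′ to 3′ over the 250 bases before the RefSeq transcription start (GRCm38.p6), which lies inside the peak. Capitals mark matches, on either strand, to CCAAT (NF-Y), GGGCGG (SP and KLF factors), CCGGAAGT (ETS factors) or GCGCATGCG (NRF1), the 4 found here of 11 motifs searched. Srsf11 lies at chr3:158031749-158031998, Sf3b1 at chr1:55027479-55027728, Prpf38b at chr3:108911730-108911979, Ddx20 at chr3:105687572-105687821, Hnrnpc at chr14:52104022-52104271 and Pfkfb3 at chr2:11553930-11554179, all on the minus strand. The peaks cover all 250 bases, except for Pfkfb3 with 143. Pfkfb3, a regulator of glycolysis, stands here for a gained peak that the tables annotate to Rbm17.
Srsf11: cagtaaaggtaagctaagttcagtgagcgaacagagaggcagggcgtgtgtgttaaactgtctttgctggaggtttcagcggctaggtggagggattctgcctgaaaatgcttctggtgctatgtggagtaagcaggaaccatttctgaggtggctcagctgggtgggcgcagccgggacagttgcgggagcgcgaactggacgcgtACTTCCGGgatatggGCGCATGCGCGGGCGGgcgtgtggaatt
Sf3b1: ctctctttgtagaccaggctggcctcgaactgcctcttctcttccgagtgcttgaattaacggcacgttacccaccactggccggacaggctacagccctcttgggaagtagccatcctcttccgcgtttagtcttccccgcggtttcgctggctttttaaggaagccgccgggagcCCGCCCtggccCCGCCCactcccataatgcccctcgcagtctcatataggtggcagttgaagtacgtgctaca
Prpf38b: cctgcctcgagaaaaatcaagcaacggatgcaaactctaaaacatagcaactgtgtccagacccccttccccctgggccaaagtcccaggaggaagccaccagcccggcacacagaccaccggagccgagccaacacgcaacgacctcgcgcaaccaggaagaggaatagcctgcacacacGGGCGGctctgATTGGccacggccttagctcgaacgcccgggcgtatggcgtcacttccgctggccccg
Ddx20: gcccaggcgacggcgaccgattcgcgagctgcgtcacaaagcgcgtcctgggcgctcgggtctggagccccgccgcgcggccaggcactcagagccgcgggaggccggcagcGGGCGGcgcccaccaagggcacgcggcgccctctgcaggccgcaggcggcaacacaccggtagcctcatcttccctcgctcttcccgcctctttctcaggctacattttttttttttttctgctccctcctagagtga
Hnrnpc: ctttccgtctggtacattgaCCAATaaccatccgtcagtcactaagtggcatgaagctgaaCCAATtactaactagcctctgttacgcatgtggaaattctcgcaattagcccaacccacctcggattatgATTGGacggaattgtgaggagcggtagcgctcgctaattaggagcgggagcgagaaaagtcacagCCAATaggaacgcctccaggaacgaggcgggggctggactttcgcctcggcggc
Pfkfb3: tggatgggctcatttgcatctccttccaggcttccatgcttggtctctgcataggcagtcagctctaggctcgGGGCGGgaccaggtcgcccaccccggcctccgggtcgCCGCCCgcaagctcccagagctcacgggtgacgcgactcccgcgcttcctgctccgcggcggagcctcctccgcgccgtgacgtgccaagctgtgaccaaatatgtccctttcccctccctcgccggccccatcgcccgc

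The Srsf11 promoter holds an ETS motif 43 bases before the start, followed by overlapping NRF1 matches on both strands at 28 and 27 bases and an SP and KLF motif at 18 bases. Hnrnpc holds 4 CCAAT motifs, at 230, 189, 119 and 54 bases before its start, and no GGGCGG. Sf3b1, Ddx20 and Pfkfb3 hold GGGCGG and no CCAAT, and Prpf38b holds 1 of each. Across the 58 member promoters whose RefSeq start lies in a promoter peak of the table of genotype after PPx, CCAAT was present in 28 (48.3%), against 43.2% of the 4798 promoters of all genes chosen in the same way and 33.8% of all 32851 mouse promoters of this length. GGGCGG was present in 32 member promoters (55.2%), against 65.8% and 32.7%. The ETS motif was present in 5 (8.62%, against 6.63% and 2.88%), those of Srsf11, Ddx17, Ddx50, Sf3a3 and Sf3b2. NRF1 matches were in Srsf11 and Hnrnph1 alone among the 58 (3.45%, against 3.48% and 1.45%). TATAAA was present in 1 member promoter, that of Rbm43 (1.72%, against 5.04% and 12.4%). The other motifs searched were CACGTG (E-box), in 3 member promoters (5.17%, against 8.59% and 6.02%), and TGACGTCA (CRE), TGAGTCA (AP-1), AAGATGGCG (YY1), CTCGCGAG and ACTACAATT, each in at most 2 member promoters and in 0.365% to 4.46% of all mouse promoters. These letters describe the windows, and no binding was measured.

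Member peaks were mostly promoter peaks. Promoters, defined in the tables as within 3 kb of a start, made up 56 of 66 member peaks in the table of genotype before PPx, 82 of 98 after PPx, 53 of 63 in the table of PPx in controls and 87 of 102 in that of PPx in KO-labelled islets. Over whole tables the promoter share was 70.0%, 61.4%, 66.7% and 62.9%, against 84.8%, 83.7%, 84.1% and 85.3% of member peaks. Of the 329 member rows, 196 have a peak that contains a RefSeq start of the annotated gene itself. In 40 rows the peak contains the start of another gene, and in 12 rows only that of another gene. The RefSeq annotation has 147 protein-coding genes with names of this kind, and 86 of them had a listed peak, 47 of these in all 4 tables. Coverage was uneven between families. Peaks were listed at 15 of 21 hnRNP genes, 10 of 13 Prpf genes, 24 of 38 Rbm genes and 20 of 37 Ddx genes, but at 5 of 12 Snrp genes and 3 of 11 SR protein genes (Srsf5, Srsf6 and Srsf11). A peak was listed only where at least 2 libraries of the comparison called it, so a gene with a peak in fewer libraries is missing. Of the 108 loci, 56 were in all 4 tables and 31 only in the 2 tables that hold the KO-labelled libraries after PPx. Those 2 tables are longer over all peaks too, with 13111 and 12767 peaks against 7826 and 8070. The matching share over all loci was not counted, so the 31 cannot be read as a trait of these genes.

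The highest accessibility was at hnRNP and RBM promoters. In controls before PPx the top levels were 6.33 at Hnrnpc, whose protein coats uridine-rich stretches of nascent RNA, 6.10 at Rbm15, which guides the RNA methylation complex, and 6.04 at Hnrnpul1. Rbm48, at 5.63, came next. The KO-labelled levels before PPx were 6.37, 6.32, 6.04 and 5.95 in the same order. Differences between genes were not tested, and peaks were not scaled to length because all have the same width. After PPx the same promoters stood at 6.35, 5.99, 5.98 and 5.56 in controls for Hnrnpc, Rbm15, Hnrnpul1 and Rbm48, and at 7.16, 6.82, 6.70 and 6.30 in KO-labelled islets. Of these, only the Hnrnpc fold passed the authors' threshold.

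Before PPx, no member peak differed between KO-labelled and control islets at the authors' threshold. None of 66 member peaks was gained (0.0128% of all 7826 peaks were) and none was lost (0% of all peaks). The median member fold was -0.005 (lower quartile -0.21, upper quartile 0.19), with 32 peaks above 0 and 33 below, and the median over all peaks was 0.00. At an unadjusted p below 0.05 there was 1 member peak, 1.52% of members against 3.14% of all peaks.

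That peak lay upstream of Mbnl1, which encodes a muscleblind protein that directs developmental changes of alternative splicing. The peak (chr3:60462027-60462627) is annotated as distal intergenic, and its centre lies before both RefSeq starts of Mbnl1, 10503 bp from the first and 38852 bp from the second, at which the tables place the promoter peak. Its level was 4.43 in control and 3.17 in KO-labelled islets, with a call in 4 of 4 controls and in 1 of the 3 KO-labelled libraries (fold -1.26, SE 0.45, the authors' p = 0.00543, FDR 1). The promoter of Snrpg, an Sm ring protein, had levels of 3.47 and 2.41 (fold -1.05, the authors' p = 0.103), and that of Hnrnpf, which binds guanine runs, had 3.76 and 2.90 (fold -0.86, p = 0.108). At the upper end stood Prpf38b, with 4.40 and 5.05 (fold 0.65, the authors' p = 0.0884), and an intron 1 peak of Mbnl1, with 3.30 and 3.90 (fold 0.60, p = 0.211). None of these folds passed the test. U2af2, the subunit that reads the polypyrimidine tract, had 4.69 and 4.88 (fold 0.19, the authors' p = 0.563).

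Some member values before PPx lie at the bottom of the scale. The Mbnl1 peak between those starts, centred 20922 bp after the first and 7427 bp before the second, and the peak near Rbm31y, on the Y chromosome, had identical levels of -0.12 and -0.24. This pair of levels is shared by 116 peaks of the authors' deposited table, and no other peak there has a mean level below 0.

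After PPx, 94 of 98 member folds were above 0, 63 of them above the median of all peaks, and 11 passed the authors' threshold as gained in KO-labelled islets. They include the promoters of the SR proteins Srsf11 and Srsf5, the branch point factor Sf3b1, the spliceosome kinase Prpf4b, Prpf38b, the U1-associated Prpf39, the hnRNPs Hnrnpa0 and Hnrnpc, and the helicases Ddx20 and Ddx50. The gained share of members was 11.2%, against 9.89% of all 13111 peaks. For promoters it was 10 of 82 members (12.2%), against 14.3% of all 8050 promoter peaks, a share near that of promoters at large. No member peak was lost (0.0839% of all peaks were). At an unadjusted p below 0.05 there were 39 member peaks, all higher in KO-labelled islets, 39.8% of members against 33.6% of all peaks.

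Most of the member fold was shared with the whole table. The median member fold was 0.69 (lower quartile 0.48, upper quartile 0.86), the median of all peaks was 0.61 and that of all promoters 0.71. The share of folds above 0 was 95.9% for members and 90.3% for all peaks. When the table's median was subtracted from every fold, none of the 11 passed (adjusted p from 0.872 to 0.996), and their folds then lay between 0.20 for Hnrnpc and 1.02 for Srsf5. With the listed p-values adjusted over all peaks of the table instead, 6 of the 11 passed, and Ddx20, Hnrnpa0, the Rbm17 peak, Ddx50 and Hnrnpc did not (adjusted p from 0.0510 to 0.0666, Benjamini-Hochberg). A change of accessibility across all peaks and a difference in the authors' scaling between libraries cannot be told apart in group means. Beta cell marker peaks moved the same way. Over the 15 peaks at the 8 listed of 13 markers, the summed linear level was 182 in control and 306 in KO-labelled islets. Their median fold was 0.70, against 0.61 for all peaks and 0.71 for all promoters, and 3 of the 15 were gained. The part of cell make-up in the member folds was not tested. Peaks of 3 of 6 alpha cell markers summed to 46.4 and 58.5 (median fold 0.40) and those of 2 of 5 endothelial markers to 51.4 and 50.7 (0.08). Of the 3 delta and PP cell markers 1 had a peak, which was gained (18.4 and 39.9), and the single peaks of leukocyte and acinar markers stood at 5.90 and 11.3 and at 8.34 and 8.88, while no peak was listed for any of the 4 ductal or the 4 stellate and fibroblast markers.

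**Figure D1:**
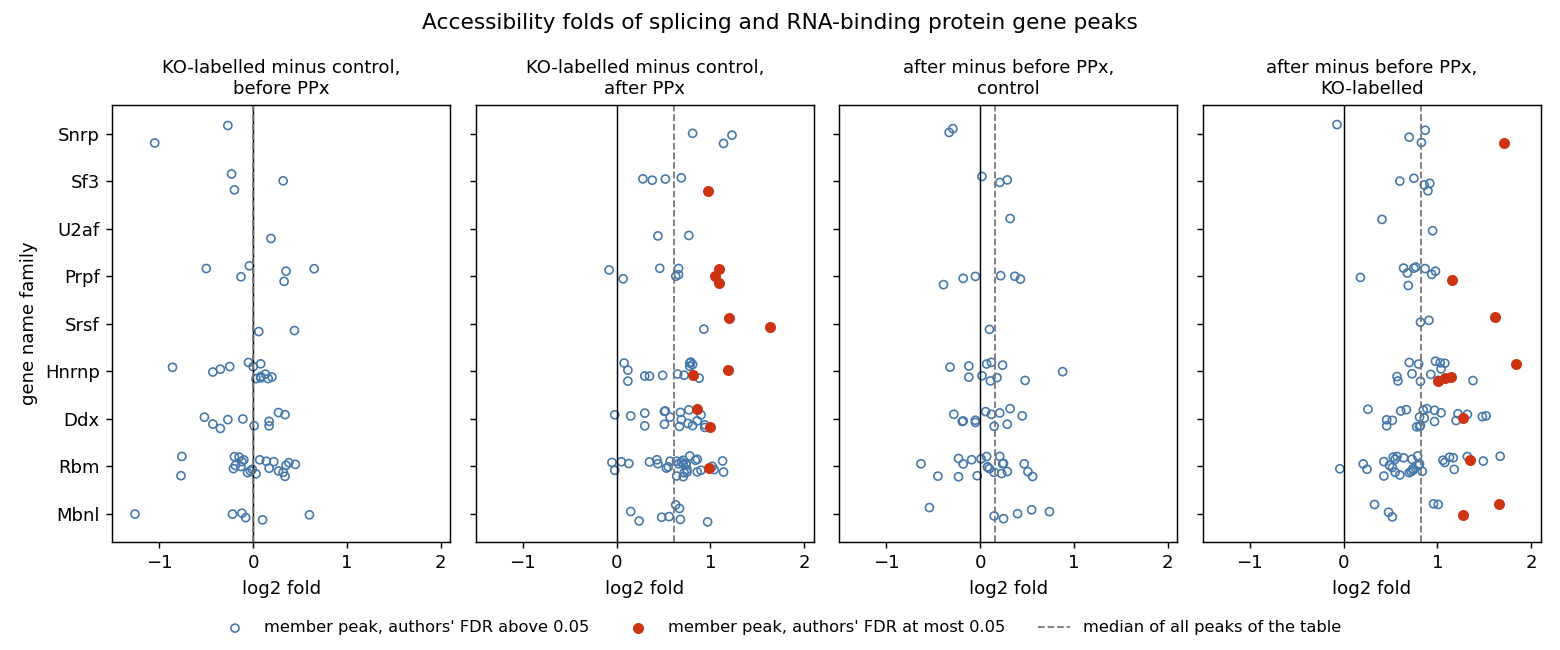
Log2 fold (x axis) of each member peak by gene name family (y axis) in the 4 comparisons; filled points have an authors' FDR of at most 0.05, and the dashed line is the median of all peaks of that table. Members spread around 0 before PPx and in controls, and around medians of 0.61 and 0.83 of all peaks in the comparisons with KO-labelled islets after PPx, where 11 peaks each are filled.

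Of the SR protein promoters, 2 of 3 were gained after PPx, against 14.3% of all promoter peaks. Counts by family, here and below, are small and were not tested against the whole table. SR proteins bind splicing enhancers in exons and recruit the spliceosome to them. Srsf11 (chr3:158031405-158032005) had a level of 4.42 in control and 5.62 in KO-labelled islets and was called in all 8 libraries (fold 1.20, SE 0.31, FDR 0.0212). This was the smallest FDR among members. Srsf5 (chr12:80945808-80946408) had 2.69 and 4.32 and was called in 1 control and 3 KO-labelled libraries (fold 1.63, SE 0.46, FDR 0.0265). Its peak is centred 609 bp after the RefSeq start and does not contain it. The Srsf6 promoter, with 2.78 and 3.70, had a fold of 0.93 (the authors' p = 0.0503) and an FDR of 1.

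Among the factors that mark the branch point and the 3′ splice site, Sf3b1 alone was gained. Sf3b1, the largest SF3B subunit, had a promoter level of 4.16 in control and 5.13 in KO-labelled islets (chr1:55027163-55027763, fold 0.97, SE 0.30, FDR 0.0325). The other 4 Sf3 promoters had folds from 0.28 at Sf3b2 to 0.69 at Sf3b6. U2af2 had 4.87 and 5.64 (fold 0.77, FDR 0.0760), and U2af1, which reads the AG of the 3′ splice site, had 2.57 and 3.01 (fold 0.44, the authors' p = 0.431).

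Prpf promoters gave 3 of the 11 gained peaks, out of 9 listed, against a gained share of 14.3% of all promoter peaks. Prpf4b had 3.99 and 5.08 (chr13:34873855-34874455, fold 1.09, SE 0.34, FDR 0.0320), at a peak centred 1374 bp before its RefSeq start. Prpf38b had 4.45 and 5.54 (chr3:108911483-108912083, fold 1.09, SE 0.35, FDR 0.0346), and Prpf39 had 3.79 and 4.84 (chr12:65036024-65036624, fold 1.05, SE 0.34, FDR 0.0348). The other 6 Prpf peaks ranged from -0.08 at Prpf31, a U4/U6 factor, to 0.66 at Prpf19 and Prpf38a. Prpf31 shares its peak with the start of Tfpt and Prpf38a with that of Orc1, so those peaks cannot be assigned to 1 gene.

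At the 3 listed Snrp promoters, those of the Sm genes Snrpg and Snrpd1 and of Snrpb2, which encodes a U2 particle protein, the median fold was 1.14 and the median control level 2.74. Snrpg had 2.74 and 3.97 (fold 1.23, the authors' p = 0.00753), Snrpb2 had 2.70 and 3.83 (fold 1.14, p = 0.0129) and Snrpd1 had 2.82 and 3.63 (fold 0.81, p = 0.0906). All 3 were called in no control library, and all 3 carry an FDR of 1. An FDR of 1 stands beside 33 of the 98 member peaks and 4534 of all 13111 peaks in the authors' deposited table. The mean level of these 33 over both groups is at most 3.49. Some of them, like Snrpg, have a small unadjusted p and still carry this FDR, so they are not called. They stay in the totals behind the gained shares. For PPx in KO-labelled islets an FDR of 1 stands beside 16 of 102 member peaks and 2669 of all 12767.

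**Figure D2:**
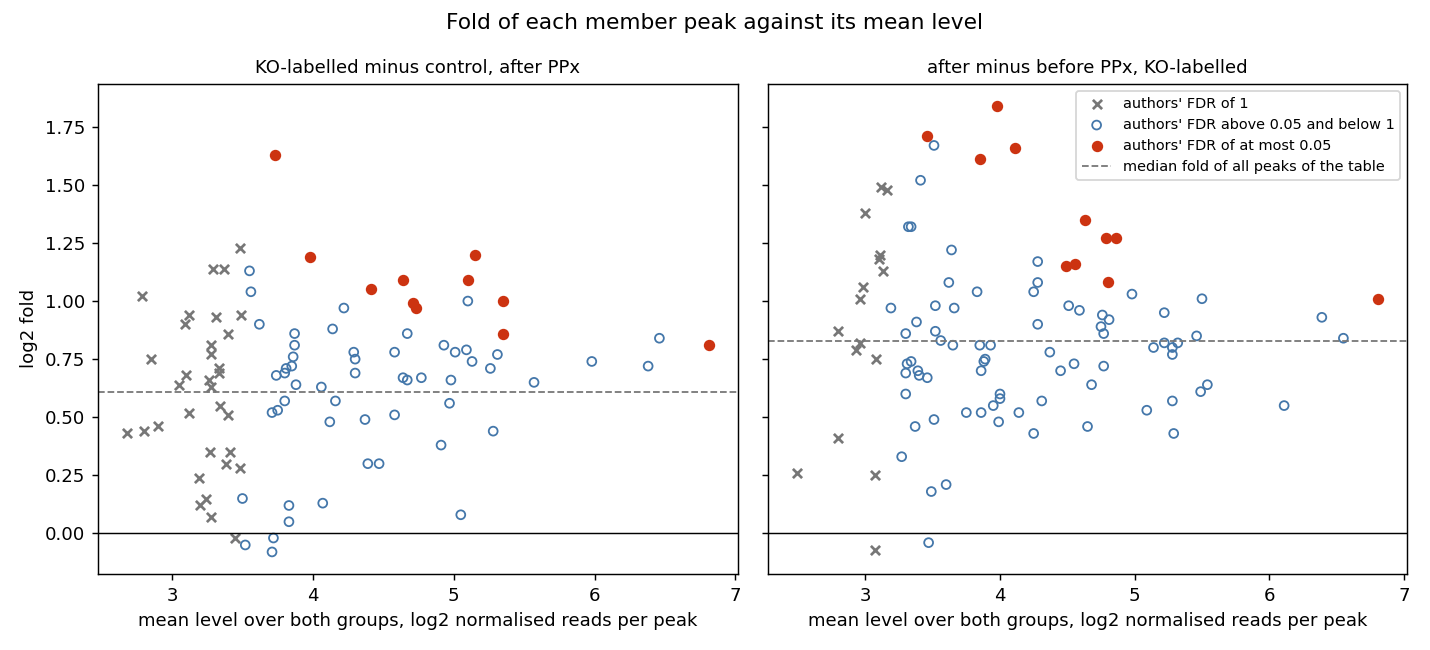
Log2 fold (y axis) of each member peak against its mean level over both groups in log2 normalised reads (x axis), for the 2 comparisons that hold the KO-labelled libraries after PPx. Crosses, with an FDR of 1, lie at mean levels of up to 3.49 in the left panel and up to 3.16 in the right, and the dashed line is the median fold of all peaks.

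hnRNPs package nascent transcripts and often hold back splice sites. Of 15 hnRNP peaks, 2 were gained, against 9.89% of all peaks. Hnrnpa0 had 3.26 and 4.46 (chr13:58128630-58129230, fold 1.19, SE 0.41, FDR 0.0396) and was called in 1 control and 4 KO-labelled libraries. Hnrnpc, the most accessible member, had 6.35 and 7.16 (chr14:52103910-52104510, fold 0.81, SE 0.30, FDR 0.0475). A further 7 hnRNP peaks had an unadjusted p below 0.05 without passing, such as Hnrnpf with 3.63 and 4.52 (fold 0.88, FDR 0.0622). At the other end, Hnrnph3 had 5.01 and 5.09 (fold 0.08, SE 0.33, FDR 0.831), the lowest fold of the family at a high level.

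DEAD-box helicases unwind or clamp RNA, in splicing and in ribosome assembly. Of 21 Ddx peaks, 2 were gained, against 9.89% of all peaks. Ddx20, part of the SMN complex that loads Sm rings onto small nuclear RNA, had 4.76 and 5.76 (chr3:105687230-105687830, fold 1.00, SE 0.33, FDR 0.0367). Ddx50, a nucleolar helicase, had 4.86 and 5.72 (chr10:62651036-62651636, fold 0.86, SE 0.31, FDR 0.0447). Just outside the threshold stood the promoter of Ddx18, with 4.52 and 5.52 (fold 1.00, FDR 0.0518). The lowest Ddx fold was -0.02, at Ddx41 with 3.73 and 3.71. The X-linked Ddx3x had 3.44 and 4.19 (fold 0.76, FDR 0.107) and its Y-linked partner Ddx3y 3.42 and 4.11 (fold 0.69, FDR 0.135).

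Of 32 peaks annotated to Rbm genes, 1 was gained, against 9.89% of all peaks, and it was not at an Rbm promoter. The peak (chr2:11553472-11554072) is annotated to Rbm17, which encodes a 3′ splice site factor, as distal intergenic. Its centre lies 49427 bp from the RefSeq start of Rbm17, and the peak contains the RefSeq start of Pfkfb3, whose sequence is printed above. Its level was 4.13 in control and 5.13 in KO-labelled islets (fold 0.99, SE 0.35, FDR 0.0425). The Rbm17 promoter itself had 4.62 and 5.27 (fold 0.66, FDR 0.104), and the peak in its exon 4 had 4.00 and 4.13 (fold 0.13, FDR 0.780). The highest Rbm fold, 1.14 at Rbm34 with 2.60 and 3.75, carries an FDR of 1, and the lowest, -0.05, was at Rbm47 with 3.54 and 3.49. An intronic peak of Rbm20, a splicing factor best known from heart, had 3.46 and 3.44 (fold -0.02, FDR 1).

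None of the 8 muscleblind peaks was gained in this comparison. The distal Mbnl1 peak had 3.65 and 4.62 (fold 0.97, SE 0.38, FDR 0.0548), just outside the threshold. The Mbnl1 promoter had 4.27 and 4.94 (fold 0.67, FDR 0.172), and the Mbnl2 promoter 3.85 and 4.34 (fold 0.48, FDR 0.276). The remaining peaks, 3 of Mbnl1 and 2 of Mbnl2, ranged in fold from 0.15 to 0.68.

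**Figure D3:**
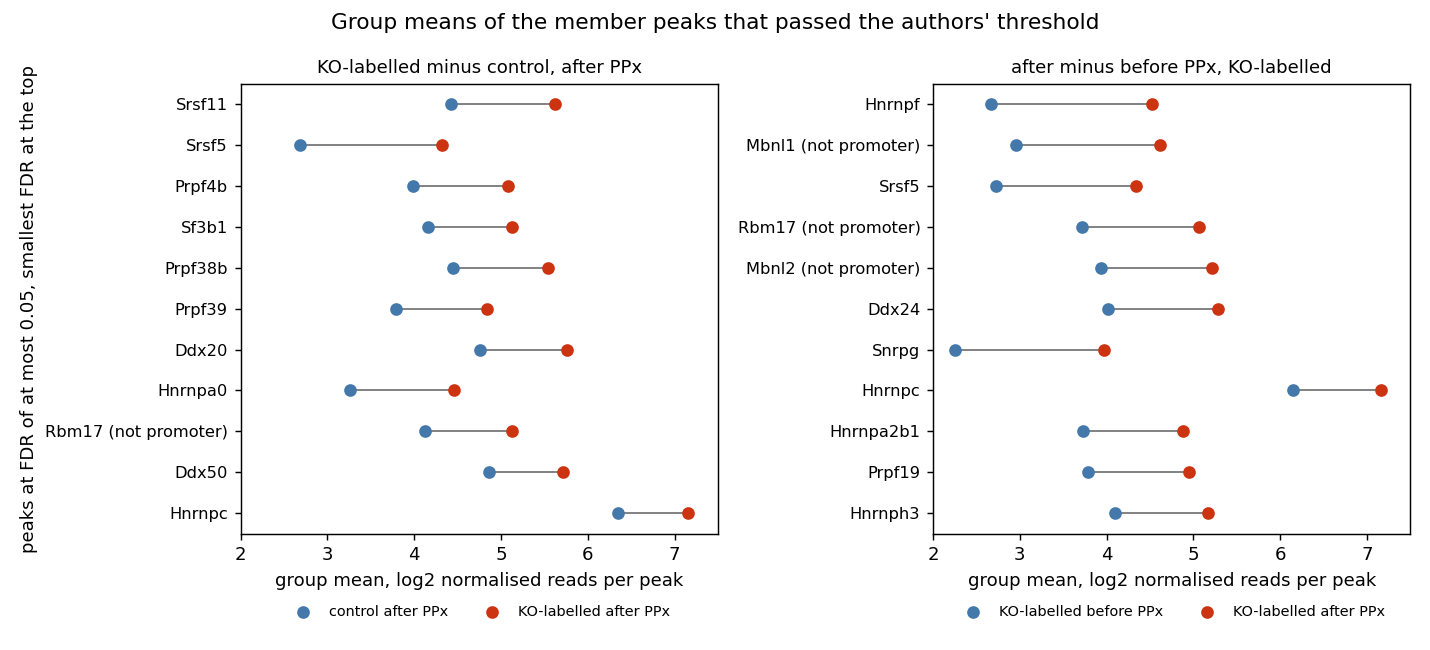
Group means in log2 normalised reads per peak (x axis) of the member peaks with an authors' FDR of at most 0.05, in the comparison of genotype after PPx (left) and of PPx in KO-labelled islets (right), ordered by FDR on the y axis. Levels after PPx in KO-labelled islets lie from 3.97 at Snrpg to 7.16 at Hnrnpc, each to the right of the mean it is compared with; group means carry no error bar because the tables hold no value per library.

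Detection moved with genotype as well, in members much as in all peaks. After PPx, 31 of 98 member peaks (31.6%, against 28.4% of all peaks) were called in no control library. No member peak lacked a call in the KO-labelled libraries, and the share of all peaks without such a call was not counted. A peak without a control call entered the table through the group in which it is higher. The 67 member peaks called in both groups had a median fold of 0.69, against 0.57 over all 9303 peaks called in both groups. All 11 gained peaks were among the 67, and the gained share of the 9303 was not counted. Some peaks without a control call, like Snrpg, carry an FDR of 1 beside a small unadjusted p, so they could not be among the 11. Of the 11, Srsf11, Prpf38b, Ddx20, Ddx50 and Hnrnpc were called in all 8 libraries.

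In control islets, PPx left the member peaks without a call. Of 63 member peaks none was gained (0% of all 8070 peaks) and none was lost (0%). The median fold was 0.11, against 0.16 for all peaks, and the folds ranged from -0.63 at Rbm12b1 to 0.88 at Hnrnph3. Hnrnph3, a relative of the guanine-run binders Hnrnpf and Hnrnph1, was the 1 member with an unadjusted p below 0.05 (1.59% of members, against 2.53% of all peaks). Its promoter had 4.21 before and 5.09 after PPx and was called in all 8 libraries (fold 0.88, SE 0.31, the authors' p = 0.00484, FDR 0.999). The next highest folds were 0.74 at the intron 1 peak of Mbnl1 (the authors' p = 0.110), with 3.00 and 3.74, and 0.56 at Rbm43 (p = 0.134), with 3.40 and 3.96. The distal Mbnl1 peak had 4.27 and 3.73 (fold -0.54, the authors' p = 0.129), and Hnrnpa0 had 3.5 and 3.17 (fold -0.32, p = 0.477).

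In KO-labelled islets, 11 of 102 member peaks were gained after PPx, and none was lost (0% of all peaks). The gained share was 10.8%, against 7.45% of all 12767 peaks, and 8 of 87 member promoters were gained (9.20%), against 9.73% of all 8033 promoters. At an unadjusted p below 0.05 there were 42 member peaks, all higher after PPx, 41.2% of members against 39.4% of all peaks. The median member fold was 0.82, against 0.83 for all peaks and 0.86 for all promoters, and 49 of the 102 folds were above the table's median. With that median subtracted none of the 11 passed (adjusted p of 1.00), and their folds lay between 0.18 at Hnrnpc and 1.01 at Hnrnpf. Adjusted over all listed peaks, 7 of the 11 passed, and Hnrnpc, Hnrnpa2b1, Prpf19 and Hnrnph3 did not (adjusted p from 0.0519 to 0.0571). This comparison shares the 4 KO-labelled libraries after PPx with the genotype comparison after PPx. It also shares the 3 KO-labelled libraries before PPx with the genotype comparison before PPx. A low level in those 3 libraries both lowers the genotype fold before PPx and raises the fold here. The values are therefore given beside the others and are no second measurement. The summed level of the beta cell marker peaks was 150.1 before and 305 after PPx (median fold 1.06). That of alpha cell marker peaks was 33.3 and 58.5 (0.91), and that of the delta and PP cell marker peak 28.2 and 41.4 (0.55). The leukocyte marker peak had 9.65 and 11.3 (0.23), and the endothelial marker peaks summed to 23.2 and 23.8 (0.19). The endothelial sums cover 2 peaks here and 5 in the genotype comparison after PPx, so they cannot be compared between the 2. The part of cell make-up was not tested.

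The largest fold was at Hnrnpf. Its promoter (chr6:117916696-117917296) had 2.67 before and 4.52 after PPx with calls in none of the 3 libraries before and in all 4 after PPx (fold 1.84, SE 0.47, FDR 0.0230). Snrpg (chr6:86371192-86371792) had 2.25 and 3.97, called in none of 3 and 3 of 4 libraries (fold 1.71, SE 0.54, FDR 0.0404). Srsf5 had 2.73 and 4.34, called in none of 3 and 3 of 4 libraries (fold 1.61, SE 0.49, FDR 0.0351). These 3 gained peaks were called in no library before PPx, so they entered the table through the group in which they are higher. The other 8 were called in both groups. In this comparison 33 of 102 member peaks (32.4%, against 31.9% of all peaks) were called in no library before PPx.

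The gained hnRNP promoters were those of Hnrnpf, Hnrnpc with 6.15 and 7.16 (fold 1.01, SE 0.34, FDR 0.0439), Hnrnpa2b1 with 3.73 and 4.88 (fold 1.15, SE 0.39, FDR 0.0468) and Hnrnph3 with 4.10 and 5.17 (fold 1.08, SE 0.38, FDR 0.0484). Hnrnpa2b1 (chr6:51469742-51470342) encodes a protein that sorts and processes RNAs. At Hnrnph3 (chr10:63023778-63024378) the fold of PPx in controls was 0.88 (FDR 0.999), and the genotype fold was 0.08 both before and after PPx. Hnrnpll stood just outside the threshold with 4.85 and 5.85 (fold 1.01, FDR 0.0507), at a peak that contains the start of the transcript 4933407O12Rik.

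Peaks annotated outside promoters gave 3 of the 11 gained members, 2 at the muscleblind genes and the Rbm17 peak, which holds the Pfkfb3 start. These are 3 of 15 such member peaks (20%), against 3.57% of all 4734 peaks outside promoters in this table, a difference that was not tested. After PPx the genotype comparison gave 1 of 16 (6.25%, the same Rbm17 peak), against 2.81% of 5061. The distal Mbnl1 peak (chr3:60462044-60462644) had 2.95 and 4.61 with calls in 1 library before and 3 after PPx (fold 1.66, SE 0.47, FDR 0.0299). A peak in intron 1 of Mbnl2 (chr14:120312682-120313282), centred 37313 bp after its RefSeq start, had 3.94 and 5.21 (fold 1.27, SE 0.39, FDR 0.0374). The Mbnl1 and Mbnl2 promoters, with folds of 0.96 (FDR 0.247) and 0.52 (FDR 0.262), did not pass. The Rbm17 peak at the Pfkfb3 start had 3.72 and 5.06 (fold 1.35, SE 0.41, FDR 0.0353). Over the 15 member peaks outside promoters the median fold was 1.01, against 0.77 for such peaks of the whole table.

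Ddx24, an RNA helicase, had 4.01 and 5.28 (chr12:103425660-103426260, fold 1.27, SE 0.40, FDR 0.0403), and Prpf19, the ubiquitin ligase of the spliceosome's activation complex, had 3.79 and 4.95 (chr19:10894923-10895523, fold 1.16, SE 0.40, FDR 0.0483). Several genotype calls after PPx were not calls here: Srsf11 had 4.80 and 5.62 (fold 0.82, FDR 0.0800) and Sf3b1 had 4.21 and 5.14 (fold 0.92, FDR 0.0760). The lowest folds were -0.07 at Snrpb with 3.11 and 3.03, and -0.04 at Rbm25 with 3.49 and 3.45.

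**Figure D4:**
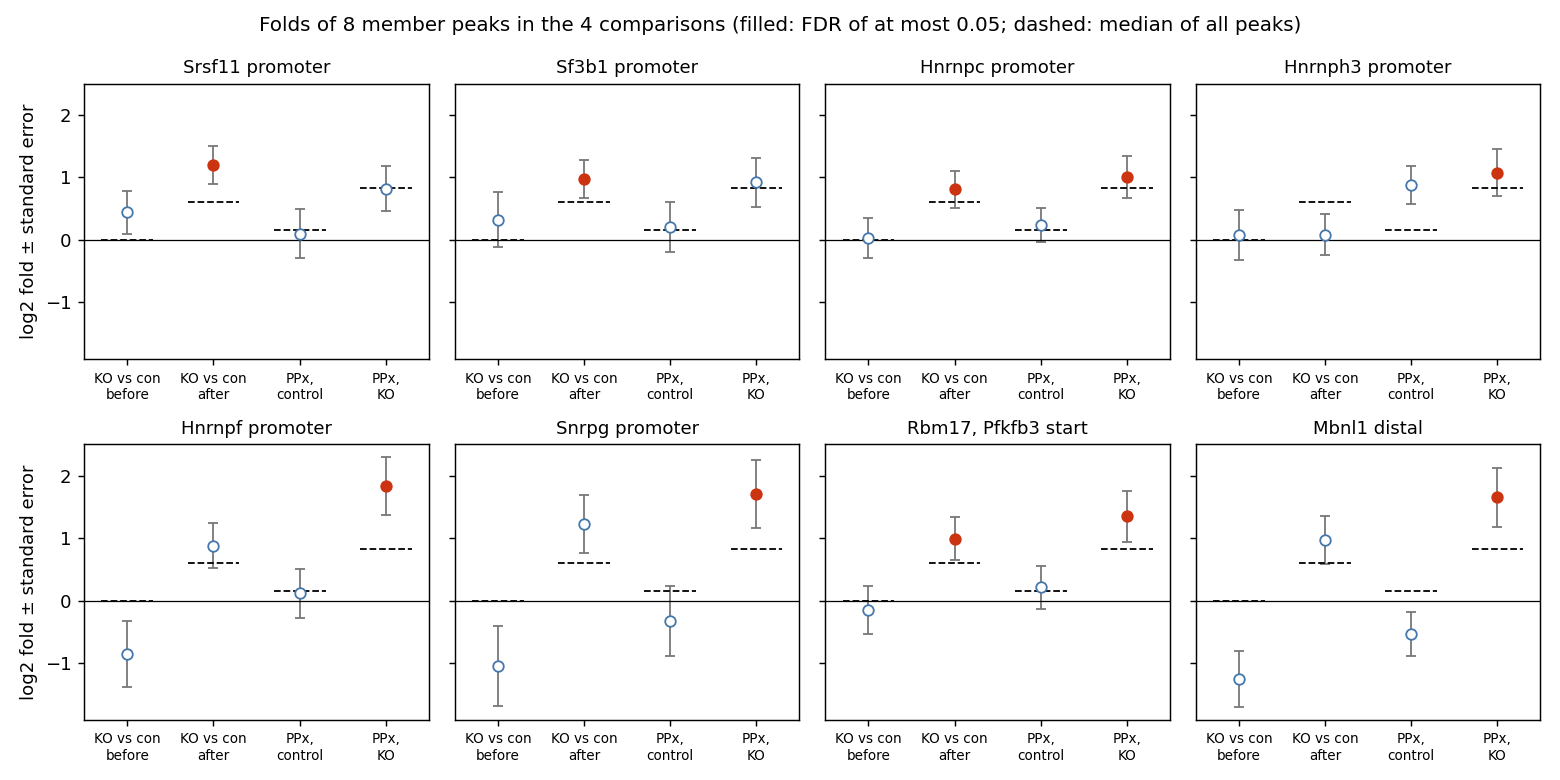
Log2 folds (y axis) with their standard errors (bars) of 8 member peaks in the 4 comparisons (x axis: KO-labelled against control before and after PPx, then PPx in control and in KO-labelled islets); filled points have an authors' FDR of at most 0.05, and short dashed lines are the median of all peaks. Hnrnpf, Snrpg and the distal Mbnl1 peak lie below 0 for genotype before PPx and above 0 after it, while Hnrnph3 lies near 0 for genotype and at 0.88 and 1.08 for PPx.

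Whether the genotype fold itself differed between the states was tested on peaks matched between the tables before and after PPx, which share no library. Of 61 matched member peaks none passed after adjustment over all 7504 matched peaks (two-sided z test on the authors' folds and their computed SEs, Benjamini-Hochberg), against 0.0267% of all matched peaks. At an unadjusted p below 0.05 there were 7 member peaks, 11.5% of members against 14.5% of all matched peaks. The median difference was 0.72 for members and 0.64 for all. Of the 61 member differences 60 were above 0. The share above 0 over all matched peaks was not counted, so this count is not read as a result about the members. The distal Mbnl1 peak had the smallest p, with folds of -1.26 before and 0.97 after PPx (difference 2.23, SE 0.59, unadjusted p of 0.000163, adjusted p of 0.138). Snrpg followed with -1.05 and 1.23 (difference 2.28, SE 0.79, adjusted p of 0.303) and Hnrnpf with -0.86 and 0.88 (difference 1.74, SE 0.64, adjusted p of 0.304). The other 4 were Ddx60, the Rbm17 peak at the Pfkfb3 start, Hnrnph1 and Rbm46os, with differences of 1.19, 1.14, 1.21 and 1.24. With each table's median subtracted, 2 member peaks had an unadjusted p below 0.05, and the difference at the distal Mbnl1 peak was 1.62 (unadjusted p of 0.00616, adjusted p of 1.00). At Hnrnph3 the difference was 0.00 (SE 0.52).

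**Figure D5:**
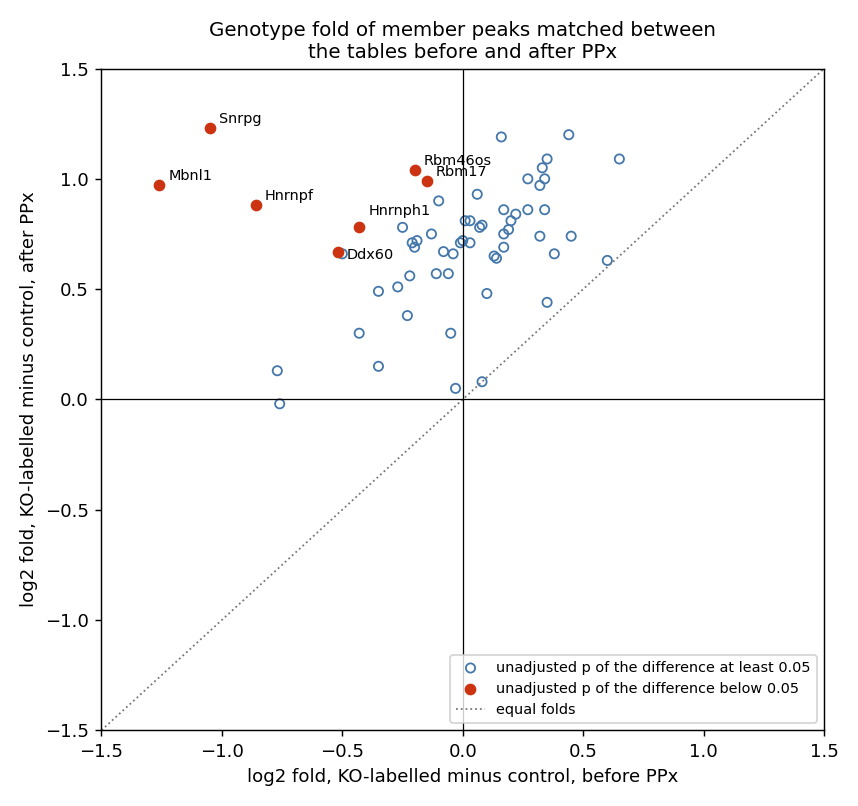
Log2 fold of KO-labelled minus control islets after PPx (y axis) against the same fold before PPx (x axis) for the 61 member peaks matched between both tables; filled and named points have an unadjusted p below 0.05 for the difference, and the dotted line marks equal folds. All points but that of Hnrnph3, which lies on the line, lie above it. The median difference over all 7504 matched peaks was 0.64.

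Other splicing genes, a list of 144 genes outside these name families, were set beside the members. After PPx 79 of these genes had a peak, and 8 of their 101 peaks were gained in KO-labelled against control islets (7.92%, median fold 0.71), against 9.89% and 0.61 for all peaks, and none was lost. They include promoters of the nuclear speckle scaffolds Srrm2, with 4.55 and 5.54 (fold 0.99, FDR 0.0396), and Son, with 3.48 and 4.48 (fold 1.01, FDR 0.0471), of the exon junction factor Cwc22, with 4.13 and 5.20 (fold 1.07, FDR 0.0396), and of the m6A reader Ythdc1, with 5.56 and 6.47 (fold 0.91, FDR 0.0486). A distal peak of the neuronal RNA-binding protein gene Elavl4 had 4.33 and 5.52 (fold 1.18, FDR 0.0265). With PPx in KO-labelled islets 8 of 104 peaks at 81 genes were gained (7.69%, median fold 0.83), against 7.45% and 0.83 for all peaks, among them the promoters of Gemin6, of the SMN complex, with 2.38 and 4.14 (fold 1.76, FDR 0.0349), and of the splicing regulator Celf1, with 2.29 and 3.99 (fold 1.70, FDR 0.0421). Both of these, and 5 of the 8 in all, were called in no library before PPx, so they entered the table through the group in which they are higher; for genotype this held for 1 of the 8. Before PPx, and with PPx in controls, none of 73 and none of 67 peaks was gained or lost.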

How the data were processed

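Pancreatic islets of control and KO-labelled mice before and after PPx were profiled by ATAC-seq in 15 libraries. The submitters' processing notes name cutadapt, BWA, MACS, DiffBind and ChIPseeker and the mm10 build, without versions. The authors deposited 4 comparison tables of 601 bp peaks: levels and folds are log2 values of normalised reads averaged per group, beside p-values and FDRs of a test the headers do not name. Deposited counts give the libraries calling each peak. Library scaling was not given in the sources used here.

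Fully repeated rows were dropped, and folds were signed as in the report. Members and lists were chosen with earlier results of these data known. A fold's SE is its size over the two-sided normal quantile of its p, or the median of 1 of 40 bins of mean level where the fold was under 0.1 or p reached 0.95. This reads the p as measuring spread between mice. Peaks of 2 tables sharing 1 bp or more were paired, and differences were tested by a two-sided z test, adjusted over all matched peaks (Benjamini-Hochberg), a step tested on simulated data (Python 3.11.15, SciPy 1.17.1). All 88 gene symbols matched RefSeq, which gave starts and promoters (GRCm38.p6). Named peaks were those called, the highest and lowest fold of each family, peaks outside promoters with the smallest FDR of their gene or a p of 0.05 or below, all Mbnl and U2af peaks, and the 4 genes with the highest control level before PPx (the next in this order is not reported here). Alternatives covered the FDR threshold, adjustment over all listed peaks, centring, promoters only, 1 peak per gene, repeated rows, a mean level of at least 3.5, and detection in both groups.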

Additional observations from a re-analysis of the deposited data

How the results depend on the processing

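The tables hold group means, so no library could be left out in turn, and the depth per library, which limits low peaks most, is unknown. No paired analysis was possible because the tables hold no value per library and the sample numbers are not shared between groups. After PPx, 11 gained members became 6 with adjustment over all listed peaks and 0 at an FDR of 0.01 or with folds centred on the median of all or of promoter peaks. For PPx in KO-labelled islets the counts were 7, 0, 0 and 0. Over whole tables, 1297 and 951 gained peaks became 541 and 573 with that adjustment and 2 and 0 with centring on all peaks. At those centrings the median member fold became 0.08 and -0.02 after PPx, and -0.01 and -0.04 for PPx in KO-labelled islets. The counts kept within 1.5 times for promoters only and 1 peak per gene. Chosen after seeing the data, omitting Ddx genes gave 9 and 10, omitting the Rbm17 peak at the Pfkfb3 start and non-coding genes 10 and 10, and keeping peaks called in both groups 11 and 8. Counts of 0 before PPx and in controls held under all settings run, as did 0 member differences. The 2 tables of PPx also gave 0 member differences, but they hold the same libraries and the same contrast, so this is no separate check.

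Centring on all peaks turned the sign of uncalled named folds. For genotype after PPx they became -0.53 at Hnrnph3, -0.17 at U2af1, -0.33 at Sf3b2, -0.37 at the intron 2 peak of Mbnl1, and -0.05, -0.13 and -0.46 at Mbnl2. For PPx in controls they became -0.01 at Rbm48 and Mbnl2, -0.06 at Srsf11 and -0.14 at Sf3b6. For PPx in KO-labelled islets they became -0.01 at Srsf11, -0.28 at Rbm48, -0.31 at Mbnl2, -0.26 at Hnrnpul2, -0.23 at Sf3b2, -0.35 and -0.50 at Mbnl1, -0.65 at Prpf18, -0.42 at U2af1, -0.58 at Rbm12b1 and -0.57 at Ddx11. The cause was not tested.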
